A study of Mus musculus with 2 samples.

Results

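The nuclear-encoded subunits of the mitochondrial respiratory chain and of ATP synthase were compared between 4T1 cells treated with AS and 4T1 cells treated with the vehicle. AS is astragalin, a plant flavonoid glycoside, and 4T1 is a murine mammary carcinoma line. Cells of wild-type genotype were kept for 24 h with AS or its vehicle, by the study's methods, which use AS at 20 μM in cell culture but state no dose for these libraries. A stranded mRNA preparation gave 1 library per condition, so that every result compares single libraries of 1 cell line and has no replicate check. Members were chosen by gene symbol (Nduf, Sdh, Uqcr, Cyc1, Cox4 to Cox8 and Atp5 names, without names that end in -ps). Cox names needed a, b or c after the number, and Nduf names a number after the letter a, b, c, s or v. Cox4i1, Ndufab1 and the Ndufaf assembly factors are thus not among them. The rule gave 79 of the 14197 genes in the table. They divide into 38 genes of complex I, 4 of complex II, 9 of complex III, 11 of complex IV and 17 of complex V. Ndufa4, named for complex I, was counted with complex IV, where the protein is found, and so was Cox7a2l, a supercomplex factor related to the Cox7a subunits.

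Complexes I and II pass electrons from NADH and from succinate to coenzyme Q, complex III passes them on to cytochrome c, and complex IV passes them to oxygen. Proton pumping by complexes I, III and IV sets up the gradient that complex V, the ATP synthase, uses to make ATP. Most subunits are encoded in the nucleus, while a few hydrophobic core subunits are encoded in the mitochondrial genome, and the complexes are put together by assembly factors that are not part of the finished enzyme. Many nuclear genes of the chain are known targets of the transcription factors NRF1, GABP, ERR and YY1.

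The subunits were slightly and broadly lower in the AS library. The deposited values are RPKM, reads per kilobase of exon, scaled by the size of each library. A log2 ratio here compares AS with the vehicle, with 0.1 RPKM added on each side, which understates the ratio of low genes. The median log2 ratio of the 79 subunits was -0.18, against 0.07 over all genes, a distance of -0.25. A total of 71 subunits had a log2 ratio below 0, beside 39.1% of all genes, and 77 lay below the median of all genes, beside 50%. The summed level of the subunits was 3948 RPKM with AS and 4504 RPKM with the vehicle, which is 12.3% lower. The sum over all genes was 3.90% lower. No single subunit differed by much, since the log2 ratios ranged from -0.64 for Atp5k to 0.17 for Ndufa6.

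Counts past a fixed fold show how small the differences were. No subunit passed a log2 ratio of 1 in either direction, where 0.662% of all genes were higher and 0.31% were lower. More than 1.5-fold lower was 1 subunit, Atp5k, beside 2.01% of all genes, and 0 subunits were more than 1.5-fold higher, beside 3.56%. More than 1.2-fold lower were 19 subunits, beside 10.6% of all genes, and 0 were more than 1.2-fold higher, beside 20.5%. These counts moved with the processing. When the ratios were centred on the median of all genes, 33 subunits were more than 1.2-fold lower, beside 15.2% of all genes, and 3 more than 1.5-fold lower, beside 2.84%. Scaling by TMM factors gave the same counts of subunits, beside 15.3% and 2.85%. With the trends of the ratio across all genes in exon length, mean expression and GC content removed, 11 of 77 subunits were more than 1.2-fold lower, beside 9.32%, and 0 more than 1.5-fold lower, beside 1.6%. With the trend in coding length removed too, 8 of 75 were more than 1.2-fold lower, beside 8.22%, which is close to the background, and 0 more than 1.5-fold lower, beside 1.15%. Under these removals 1 and 2 subunits were more than 1.2-fold higher, beside 19.1% and 18.1%.

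Whole reads were recovered for 77 of the subunits, and their ratio was given a 95% Clopper-Pearson interval. These intervals cover counting error only, since reads without molecular identifiers are not independent molecules and the spread between dishes of cells was not measured. The library sizes behind the RPKM were 44909683 reads for AS and 50820728 for the vehicle, and the subunits had from 119 to 75906 reads in a library. The interval lay wholly below 0 for 56 of the 77 subunits, beside 20.1% of the 12877 genes with an interval. It lay wholly above 0 for 2 subunits, Ndufs4 and Ndufa6, beside 38%, and it spanned 0 for the other 19. Intervals narrow with more reads, and the subunits had a median of 2060 vehicle reads, against 1001 over all genes. Among genes with a mean of at least 10 RPKM, 1489 of 4274 had an interval wholly below 0, against 49 of 65 subunits at that level. In bulk RNA, fewer cells with a transcript and less of it per cell cannot be told apart.

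**Figure D1:**
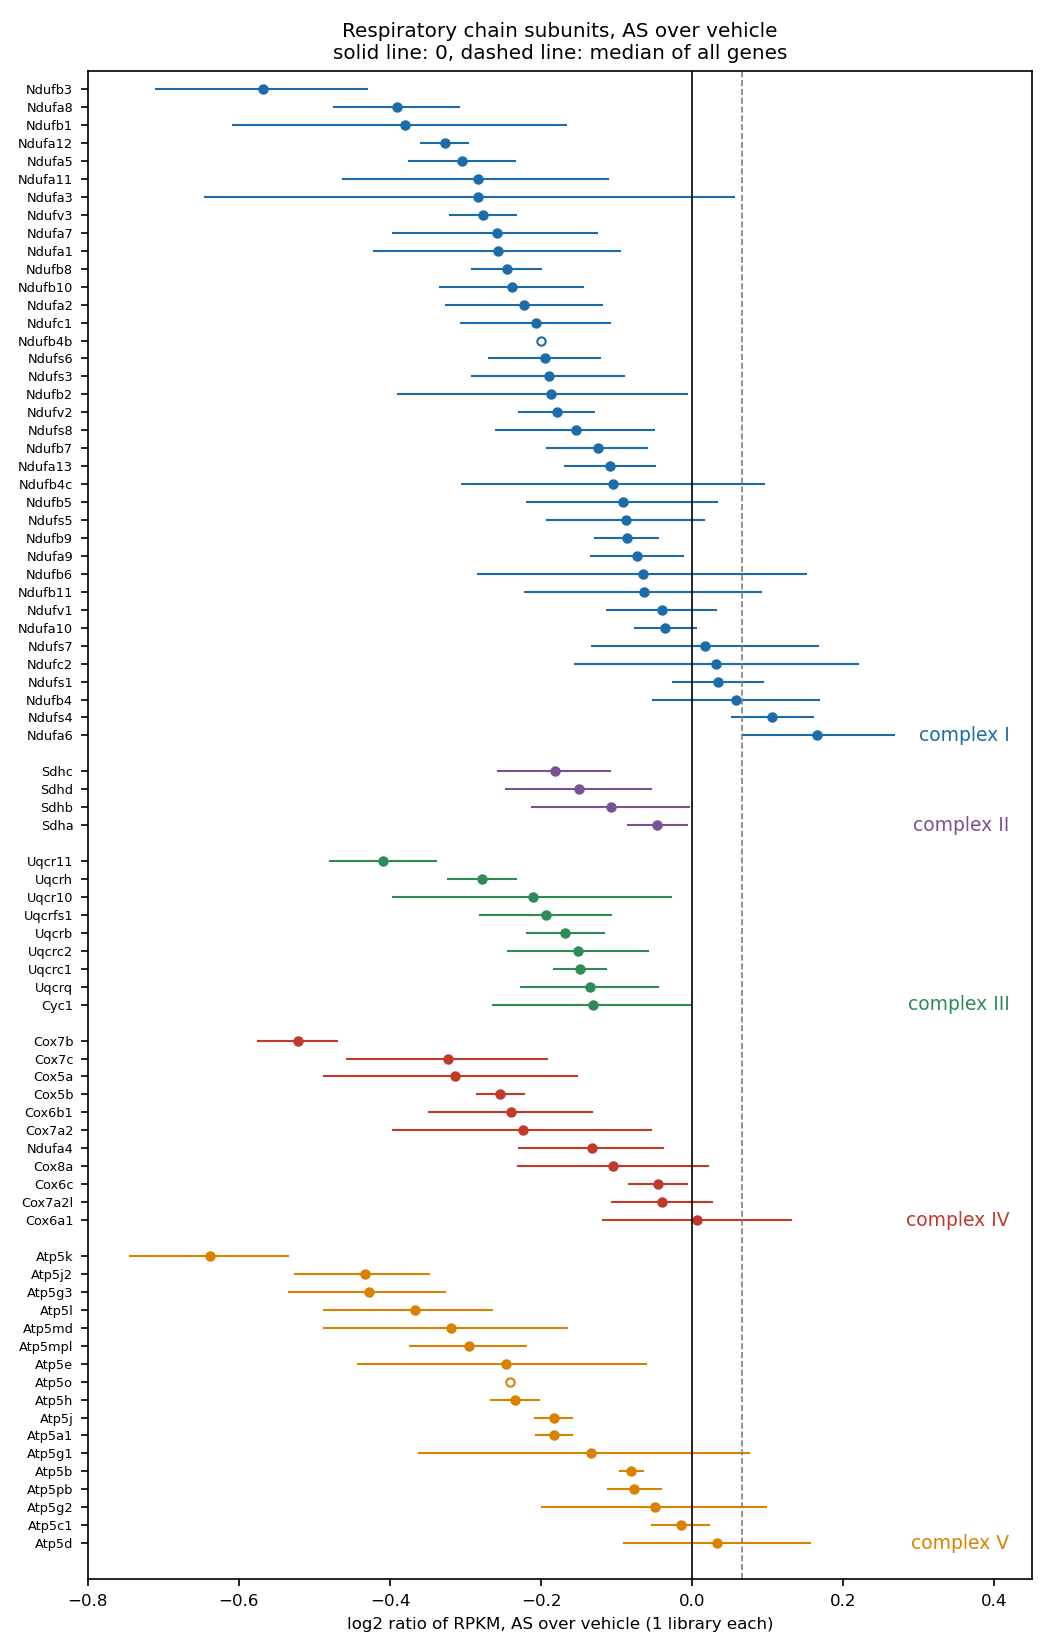
The x axis is the log2 ratio of RPKM, AS over vehicle, for 78 of the subunits, grouped by complex and ordered by ratio, with 1 library per condition. Bars are 95% counting intervals, open points (Ndufb4b, Atp5o) have none, the dashed line is the median of all genes (0.07), and 70 of the points lie to the left of 0.

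The libraries carried the markers of the labelled cell type. All 8 epithelial markers looked for (among them Krt8, Krt18 and Epcam) were in the table, with a summed level of 1823 RPKM with AS and 2327 RPKM with the vehicle. Of the fibroblast markers 3 of 5 were in the table, at a sum of 5.49 and 5.21 RPKM, and of the leukocyte markers 3 of 6, at 26.6 and 30.1 RPKM, most of it Cd68. None of the 3 endothelial or the 3 muscle markers was in the table. The part of these differences in the subunit values was not tested.

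Complex V had the lowest median of the 5 complexes. By summed level it was 11.2% lower, against 15.3% for complex III, 15.0% for complex IV, 11.6% for complex I and 6.91% for complex II. Over all genes the sum was 3.90% lower. The 17 subunits of complex V had a median log2 ratio of -0.23. Of them 16 lay below 0, beside 39.1% of all genes, and 6 were more than 1.2-fold lower, beside 10.6%. The differences were uneven along the structure of the enzyme. The 5 genes of the membrane part that encode subunits e, f and g, DAPIT and the 6.8PL proteolipid had a median log2 ratio of -0.37 and were all more than 1.2-fold lower. Their summed level was 106 RPKM with AS and 145 RPKM with the vehicle, which is 27.4% lower. These small proteins sit beside the proton channel, and subunits e and g are known for their part in the pairing of ATP synthases at the cristae edges.

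Atp5k, the gene of subunit e (GRCm38, chromosome 5, 108433244 to 108434448, minus strand), was at 42.3 RPKM with AS and 65.8 RPKM with the vehicle. This was the lowest log2 ratio of all 79 subunits, -0.64 with an interval from -0.74 to -0.53. Atp5j2, the gene of subunit f, was at 11.5 RPKM with AS and 15.6 RPKM with the vehicle, a log2 ratio of -0.43. Atp5l, the gene of subunit g, was at 3.81 and 4.94 RPKM, a log2 ratio of -0.37. All 3 intervals lay below 0. For DAPIT (Atp5md) the level was 4.38 RPKM with AS and 5.49 RPKM with the vehicle, and for the proteolipid (Atp5mpl) it was 43.5 and 53.5 RPKM. The log2 ratios of these last genes, -0.32 and -0.30, also had intervals below 0. Near-identical pseudogenes, described further below, were found for Atp5k, Atp5l and Atp5md, and none for Atp5j2 and Atp5mpl.

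The catalytic head of the ATP synthase differed less. The 5 genes of the F1 head and central stalk had a median log2 ratio of -0.08. None was more than 1.2-fold lower, beside 10.6% of all genes, which for 5 genes is near that share. Atp5b, the gene of the catalytic beta subunit, was the highest of all subunits by level, with 333 RPKM with AS and 353 RPKM with the vehicle. Its log2 ratio of -0.08 had a narrow interval, from -0.10 to -0.07, because 63446 and 75906 reads lay behind it. Atp5a1, which encodes the alpha subunit, was at 179 and 203 RPKM, a log2 ratio of -0.18. Atp5c1 (gamma) was at 124 RPKM with AS and 126 RPKM with the vehicle, with a log2 ratio of -0.02. Atp5d (delta), at 11.8 and 11.6 RPKM, was the only complex V gene with a ratio above 0, at 0.03. Counting error alone spans 0 for both gamma and delta. Atp5e, which encodes the epsilon subunit and is the shortest coding sequence of the head, had the lowest ratio there, -0.25, from 5.01 RPKM with AS and 5.96 RPKM with the vehicle.

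The peripheral stalk, which holds the head against the turning rotor, lay between these groups with a median log2 ratio of -0.21 over 4 genes. Atp5o, the gene of OSCP, was at 19.6 RPKM with AS and 23.2 RPKM with the vehicle, Atp5h (subunit d) at 211 and 248 RPKM, and Atp5j (F6) at 173 and 197 RPKM. Atp5pb (subunit b), at 64.3 and 67.8 RPKM, had the smallest difference of the stalk, with a log2 ratio of -0.08.

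The c ring is encoded by a trio of genes whose mature proteins are identical, and these genes differed in both level and ratio. Atp5g3 was at 12.8 RPKM with AS and 17.2 RPKM with the vehicle, a log2 ratio of -0.43 with an interval from -0.53 to -0.33. Atp5g2 was at 9.23 and 9.55 RPKM, with a ratio of -0.05 and an interval from -0.20 to 0.10. Atp5g1 was the lowest of all subunits by level, at 1.42 RPKM with AS and 1.57 RPKM with the vehicle, and its ratio of -0.13 had an interval from -0.36 to 0.08. The interval of Atp5g3 did not overlap that of Atp5g2, and it did overlap that of Atp5g1. The coding sequences of the trio share between 68.3% and 71.2% of their bases, counted over the longer of each pair. Summed over the trio, the level was 23.4 RPKM with AS and 28.3 RPKM with the vehicle.

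Complex IV had a median log2 ratio of -0.22 over its 11 nuclear genes. Below 0 were 10, beside 39.1% of all genes, and 3 were more than 1.2-fold lower, beside 10.6%. None of the 11 genes encodes a catalytic core subunit, since the catalytic core of cytochrome c oxidase is encoded in the mitochondrial genome. Cox7b, on chromosome X from 106015700 to 106022450, was at 87.4 RPKM with AS and 126 RPKM with the vehicle, a log2 ratio of -0.52 with an interval from -0.57 to -0.47. Cox7c was at 15.7 and 19.7 RPKM, with a log2 ratio of -0.32, and Cox5a at 5.32 and 6.64 RPKM, with -0.31. The interval of Cox7b did not overlap that of Cox7c, the next gene of the complex, but did overlap that of Cox5a, from -0.49 to -0.15. Cox5b, the gene of the complex with the highest level, was at 200.1 RPKM with AS and 239 RPKM with the vehicle, a log2 ratio of -0.25. The other end of the complex held Cox6a1, at 31.5 and 31.4 RPKM, Cox7a2l, at 51.9 and 53.4 RPKM, and Cox6c, at 62.9 and 64.9 RPKM. Their log2 ratios were 0.01, -0.04 and -0.05.

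Among the other isoform families of complex IV, 1 ubiquitous form each was in the table. Cox6b1 was at 38.2 RPKM with AS and 45.1 RPKM with the vehicle (log2 ratio -0.24), and Cox8a was at 33.8 and 36.4 RPKM (-0.10). Cox7a2 was at 11.8 and 13.8 RPKM (-0.22), and Ndufa4 was at 26.0 and 28.5 RPKM (-0.13). The symbol rule does not take in Cox4i1, the gene of the main form of subunit IV. It was at 177 RPKM with AS and 179 RPKM with the vehicle, a log2 ratio of -0.02 whose interval, from -0.05 to 0.02, spanned 0. It lay above most of the complex IV genes that the rule did take in.

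**Figure D2:**
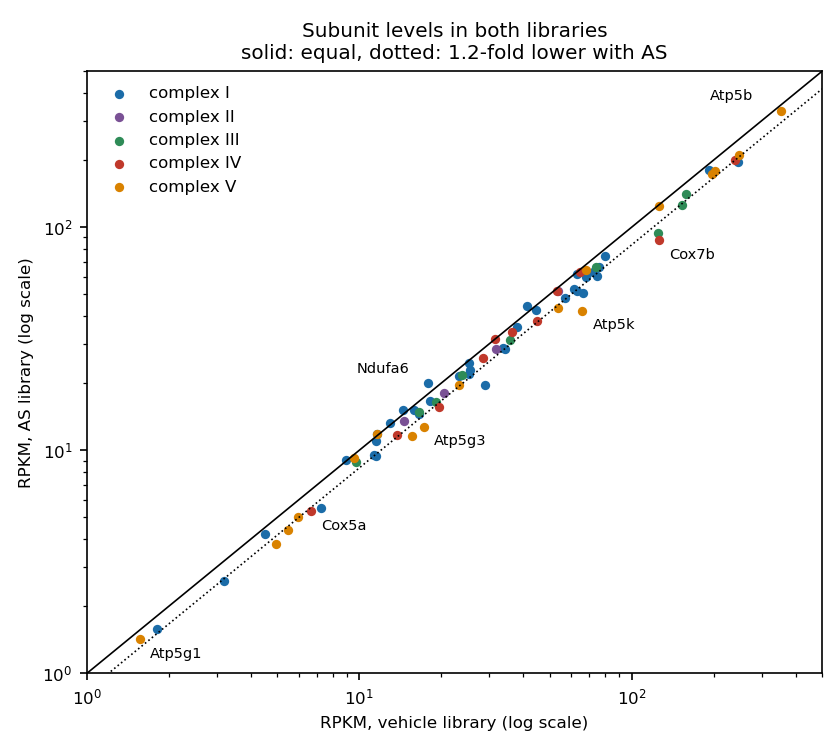
The x axis is the RPKM of 78 of the subunits in the vehicle library and the y axis that in the AS library, both on log scales, with points coloured by complex. Points lie close to the line of equal values over the whole range of vehicle levels, from 1.57 RPKM (Atp5g1) to 353 RPKM (Atp5b), and mostly between it and the dotted line of a 1.2-fold lower level.

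Complex III was lower throughout. All 9 of its nuclear genes had a log2 ratio below 0 and an interval below 0, beside 39.1% of all genes and 20.1% of those with an interval. Their median was -0.17, and 2 were more than 1.2-fold lower, beside 10.6%. The lowest was Uqcr11, a small accessory subunit, at 94.4 RPKM with AS and 125 RPKM with the vehicle, a log2 ratio of -0.41. Uqcrh, the hinge protein gene, was at 126 and 153 RPKM (-0.28), and Uqcr10 was at 16.5 and 19.1 RPKM (-0.21). The 2 electron-carrying subunits had a median of -0.16, close to the -0.17 of the 7 accessory genes. Uqcrfs1, the gene of the Rieske iron-sulfur protein, was at 31.4 RPKM with AS and 35.9 RPKM with the vehicle, a log2 ratio of -0.19. Cyc1, which encodes cytochrome c1, was at 8.87 and 9.72 RPKM and had the ratio nearest to 0 of the complex, -0.13. Uqcrc1 and Uqcrq followed it, at -0.15 and -0.14, from 66.6 and 21.8 RPKM with AS and 73.9 and 23.9 RPKM with the vehicle.

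Complex II is also the succinate dehydrogenase of the citric acid cycle. All 4 of its genes had log2 ratios below 0 and intervals that ended below 0, beside 39.1% of all genes and 20.1% of those with an interval. The median of the 4 was -0.13, and none was more than 1.2-fold lower, beside 10.6% of all genes, which for 4 genes is near that share. Sdha, the flavoprotein gene, was at 51.9 RPKM with AS and 53.6 RPKM with the vehicle (-0.05). Sdhb, the iron-sulfur subunit gene, was at 13.6 and 14.6 RPKM (-0.11). The membrane anchors Sdhc and Sdhd had ratios of -0.18 and -0.15, from 18.0 and 28.6 RPKM with AS and 20.4 and 31.7 RPKM with the vehicle. The catalytic pair thus had a median of -0.08 and the anchors of -0.17. The counting interval of Sdhb overlapped those of both anchors, and that of Sdha overlapped that of Sdhd but not that of Sdhc.

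In complex I the 38 genes had a median log2 ratio of -0.17. Below 0 were 32, beside 39.1% of all genes, and 8 were more than 1.2-fold lower, beside 10.6%. The 7 core subunits, which carry the flavin and the iron-sulfur clusters or line the quinone site, had a median of -0.07. None of these 7 was more than 1.2-fold lower, which for so few genes is near the share of all genes. The 31 accessory subunits had a median of -0.20 and included all 8. The lowest was Ndufb3, on chromosome 1 from 58586384 to 58595964, at 19.5 RPKM with AS and 29.0 RPKM with the vehicle, a log2 ratio of -0.57 with an interval from -0.71 to -0.43. Ndufa8 was at 50.6 and 66.4 RPKM (-0.39), and Ndufb1 at 5.52 and 7.22 RPKM (-0.38). These are accessory subunits of the membrane arm. The M21 entry of Ndufb1 is annotated as a bidirectional promoter lncRNA and has no coding sequence. Ndufa12, the accessory gene with the highest level, was at 196 RPKM with AS and 246 RPKM with the vehicle, a log2 ratio of -0.33.

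The highest ratios of all subunits were also in complex I. Ndufa6 was at 20.0 RPKM with AS and 17.8 RPKM with the vehicle, a log2 ratio of 0.17 with an interval from 0.07 to 0.27. Ndufs4, an accessory subunit known from the mouse model of Leigh syndrome that lacks it, was at 44.5 and 41.3 RPKM, a log2 ratio of 0.11 with an interval from 0.05 to 0.16. Ndufb4 was at 15.1 and 14.5 RPKM, with a ratio of 0.06 and an interval that spanned 0. Of these genes, Ndufa6 and Ndufs4 were the only subunits above the median of all genes. Ndufb4b and Ndufb4c, copies of Ndufb4 with table rows of their own, were at 63.0 and 21.6 RPKM with AS and 72.4 and 23.2 RPKM with the vehicle, with log2 ratios of -0.20 and -0.10. M21 annotates Ndufb4c as a processed pseudogene. How reads were divided between such copies is not given in the sources used here, so the values of this trio are uncertain.

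Among the core subunits of complex I, Ndufv1, which binds FMN and NADH, was at 24.6 RPKM with AS and 25.3 RPKM with the vehicle (-0.04). Ndufs1 was at 11.9 and 11.6 RPKM (0.03), and Ndufs7 at 9.02 and 8.91 RPKM (0.02). Ndufv2, Ndufs3 and Ndufs8 had lower ratios, of -0.18, -0.19 and -0.15, and each of these intervals ended below 0. Of these named core genes, Ndufv1, Ndufs1 and Ndufs7 had intervals that spanned 0.

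The length of the coding sequence moved with the ratio. Over 76 subunits Spearman's rho between them was 0.45, as a description across genes that share both libraries, and over 11422 genes it was 0.15. The 47 subunits with under 500 coding bases had a median log2 ratio of -0.22, against -0.05 for the 1024 genes of that length, and the 29 longer ones had -0.11, against 0.08 for 10398 genes. In both length classes the subunits thus lay below other genes. Catalytic and core subunits are mostly long, and the membrane subunits of complex V are short. When the trends of the ratio with exon length, mean expression and GC content were removed over all genes, the distance of the subunit median from that of all genes was -0.14 in place of -0.25. With the trend in coding length removed too it was -0.12, and 59 of the 75 subunits that could be placed (78.7%) lay below the median of all genes. After that removal the membrane subunits of complex V still had a median distance of -0.40, the c ring genes of -0.22 and the F1 genes of -0.04. The accessory genes of complex I then had -0.12 and its core genes -0.08.

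**Figure D3:**
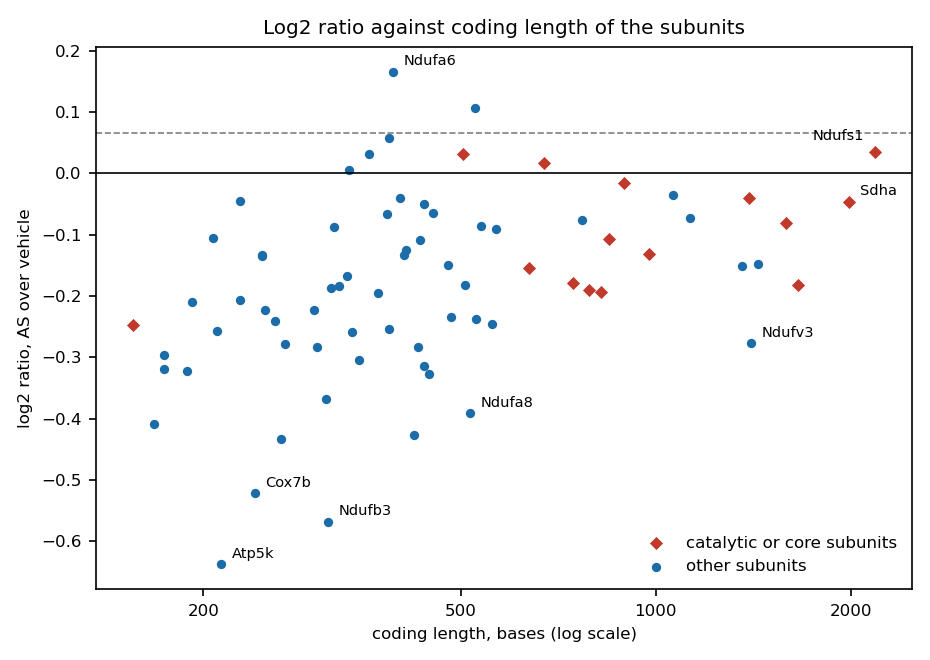
The x axis is the coding length in bases on a log scale and the y axis the log2 ratio of RPKM, AS over vehicle, for the 74 subunits drawn. Red diamonds are catalytic or core subunits and blue points the others, the dashed line is the median of all genes (0.07), and the lowest ratios (Atp5k, Ndufb3, Cox7b) belong to short coding sequences.

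Near-identical pseudogenes can take or lend reads. At least 1 annotated pseudogene with 95% identity over 80% of the coding sequence was found for 18 of 76 subunits, Atp5k, Ndufb3 and Cox7b among them, and up to 7 for Atp5l. The median log2 ratio was -0.21 with such copies and -0.17 without. These close medians hide that the lowest genes of complexes I, III, IV and V (Ndufb3, Uqcr11, Cox7b and Atp5k) each had a copy. Others with a copy, such as Cox6c (-0.05) and Ndufb4 (0.06), did not have low ratios. The part of such copies in the ratios was not tested. Of the 58 subunits searched and found without such a copy, 10 were more than 1.2-fold lower, beside 10.6% of all genes. None of them was more than 1.5-fold lower, beside 2.01%. Ndufb1, Ndufb4b and Ndufb4c were not searched and are not among the 58. The 3 rows with -ps names, which the rule leaves out, also had log2 ratios below 0, with -0.72 for Ndufs5-ps, -0.56 for Atp5pb-ps and -0.45 for Ndufa12-ps, all at 4.19 RPKM or less in both libraries.

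Promoter sequence was read from RefSeq windows (GRCm38.p6, 250 bases before to 50 after the start), which matched 66 of the 79 subunits. The core of the NRF1 motif (GCGC, then any base, then TGCGC) was found on either strand in 16 of the 66 windows (24.2%), against 10.9% of the windows of 9680 genes in the table and 4.78% of all 27025 windows. The following sites are shown because they belong to the 3 subunits with the lowest and the 3 with the highest ratio among those 16. Each is the site nearest to the start, 5′ to 3′ on the minus strand, with the motif in capitals, which in Cox6a1 and Ndufb4 is its reverse complement.
Atp5k, chr5:108434430-108434459: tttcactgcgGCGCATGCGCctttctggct
Atp5g3, chr2:73911295-73911324: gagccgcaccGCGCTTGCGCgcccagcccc
Ndufa8, chr2:36049349-36049378: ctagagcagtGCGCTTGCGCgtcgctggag
Cox6a1, chr5:115349056-115349085: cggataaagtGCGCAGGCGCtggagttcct
Ndufb4, chr16:37654371-37654400: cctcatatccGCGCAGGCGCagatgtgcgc
Ndufa6, chr15:82354249-82354278: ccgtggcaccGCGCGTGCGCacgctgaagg

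The motif was thus present at both ends of the range of ratios. Positions are counted from the RefSeq start, which can differ from that of M21 (in Atp5k the RefSeq start lies inside the M21 gene). From there the site began 50 bases before the start in Atp5k, whose log2 ratio was the lowest, and 23 bases after it in Ndufa6, whose ratio was the highest. Subunits with the NRF1 letters had a median log2 ratio of -0.17 and those without them -0.19. The letters did not separate subunits with low ratios from the others.

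The YY1 letters AAGATGGC were in 9 windows (13.6%), against 4.95% of the table genes and 2.88% of all windows. In 8 of these 9 subunits the site began after the start, between 22 and 38 bases into the gene, and among the table genes with the letters the nearest site began at or after the start in 55.7%. The ERR letters TCAAGGTCA were in 2 subunits (3.03%), against 0.217% of the table genes and 0.407% of all windows. For YY1 the subunits with the lowest and the highest ratio are shown, and for ERR both subunits. All lie on the minus strand, and the ERR letters appear as their reverse complement.
YY1, Atp5j2, chr5:145191501-145191528: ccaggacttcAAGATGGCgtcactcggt
YY1, Ndufs4, chr13:114388045-114388069: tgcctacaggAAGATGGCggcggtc
ERR, Atp5g3, chr2:73911360-73911388: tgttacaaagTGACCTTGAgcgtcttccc
ERR, Sdhd, chr9:50603800-50603823: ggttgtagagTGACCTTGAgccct

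Subunits with the YY1 letters had a median log2 ratio of -0.20, close to the -0.19 of those without, and Atp5j2 and Ndufs4 lay far apart at -0.43 and 0.11. The ETS letters CCGGAAGT, which GABP binds, were in 5 subunits (7.58%), against 8.94% of the table genes. The letters TGATGNAA, part of the element bound by ATF4 with C/EBP factors, were in 0 of the 66 windows, against 2.08% of the table genes. The CRE letters TGACGTCA were in 4 subunits (6.06%), against 3.37%, and TATAAA was in 6 (9.09%), against 6.73%. A match of letters is not a measured binding site.

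Other genes of the pathway had different medians from those of the subunits. The assembly factors had medians of 0.10 for complex I (18 genes in the table), 0.21 for complex II (4), 0.19 for complex III (9), 0.13 for complex IV (29) and 0.00 for complex V (6), where all genes had 0.07. Single assembly factors had low ratios. Higd1a, a hypoxia-induced gene of the complex IV list, was at 8.88 RPKM with AS and 16.9 RPKM with the vehicle (-0.93). Ndufaf3 was at 0.99 and 1.56 RPKM (-0.60), and Fmc1, of the complex V list, at 3.26 and 5.20 RPKM (-0.66). At the other end were Uqcc6, at 0.99 and 0.58 RPKM (0.69), and Uqcc5, at 1.48 and 0.98 RPKM (0.56), which are factors for complex III, and Coa7, at 2.00 and 1.37 RPKM (0.52), for complex IV. In each complex the assembly factors covered a wider range of ratios than the subunits they serve. Their lists had median levels of 3.27 to 6.71 RPKM with the vehicle, against 23.2 to 36.4 RPKM for the complexes. Ndufaf3 had 81 and 144 reads and Fmc1 101 and 182 with AS and the vehicle, and Uqcc5 and Uqcc6 had no interval. The part of counting error in the wider range was not tested.

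The regulators of mitochondrial transcription and biogenesis had the highest median of the lists, 0.23 over 17 genes. Of these, 16 lay above 0, beside 60.9% of all genes, and 6 were more than 1.2-fold higher, beside 20.5%. Tfb2m, a mitochondrial transcription factor, was at 6.70 RPKM with AS and 4.95 RPKM with the vehicle (0.43), and Twnk, the mitochondrial DNA helicase, at 36.6 and 27.8 RPKM (0.40). The lowest of the list were Gabpb1 (-0.04) and Polg (0.02). The median level of the regulators with the vehicle was 4.79 RPKM, against 31.4 RPKM for the subunits. Over all genes the ratio was lower at higher vehicle levels (Spearman's rho -0.22). Medians with the trends removed were computed for the subunits only, so the part of level in this contrast was not tested. The enzymes of the citric acid cycle had a median of -0.01 over 18 genes, from Fh1 at -0.27 to Cs at 0.17, and the mitochondrial chaperones and proteases 0.04 over 15. In the latter list Hspa9, the mitochondrial Hsp70, was at 477 RPKM with AS and 341 RPKM with the vehicle (0.48), and Lonp1 was at 92.6 and 104 RPKM (-0.16).

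Mobile carriers and the enzymes of coenzyme Q synthesis had a median of -0.06 over 14 genes, with 7 on each side of 0. Cycs, which encodes the cytochrome c that shuttles between complexes III and IV, was at 12.0 RPKM with AS and 16.0 RPKM with the vehicle, a log2 ratio of -0.41 with an interval from -0.50 to -0.33. Coq6, at -0.46, was the lowest of that list, and Coq8a, at 0.51, the highest.

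The subunits encoded in the mitochondrial genome had a median log2 ratio of -0.10 over the 9 genes in the table, and 4 of the 13 were not analysed here. Of the 9, 8 lay below 0, beside 39.1% of all genes. The lowest was mt-Nd3, a complex I gene, at 78.8 RPKM with AS and 113 RPKM with the vehicle (-0.52), and the highest was mt-Co1, the catalytic subunit of complex IV, at 1996 and 1926 RPKM (0.05). Cytosolic ribosomal proteins, another group of short, highly expressed genes, had a median of -0.08 over 78 genes, with 94.9% below 0, and mitochondrial ribosomal proteins -0.03 over 77 genes, with 64.9% below 0. The nuclear-encoded subunits had a lower median than each of these lists but were not alone in being broadly lower. Below the median of all genes lay 97.5% of them, 98.7% of the cytosolic ribosomal genes and 74.0% of the mitochondrial ribosomal genes. All 9 subunits of the mitochondrial genome lay below it too. Intervals lay wholly below 0 for 56 of 77 nuclear-encoded subunits and 68 of 78 cytosolic ribosomal genes. More than 1.2-fold lower were 24.1% of the subunits, 22.2% of the subunits encoded in the mitochondrial genome, 28.6% of the mobile carriers and coenzyme Q genes, 10.4% of the mitochondrial and 5.13% of the cytosolic ribosomal genes. Over all genes the share was 10.6%. By this share the nuclear-encoded subunits were close to those of the mitochondrial genome (2 of 9) and below the carriers (4 of 14). The carriers and coenzyme Q genes also had 4 genes more than 1.2-fold higher, at a median of 1.66 RPKM with the vehicle, while the nuclear-encoded subunits had 0.

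**Figure D4:**
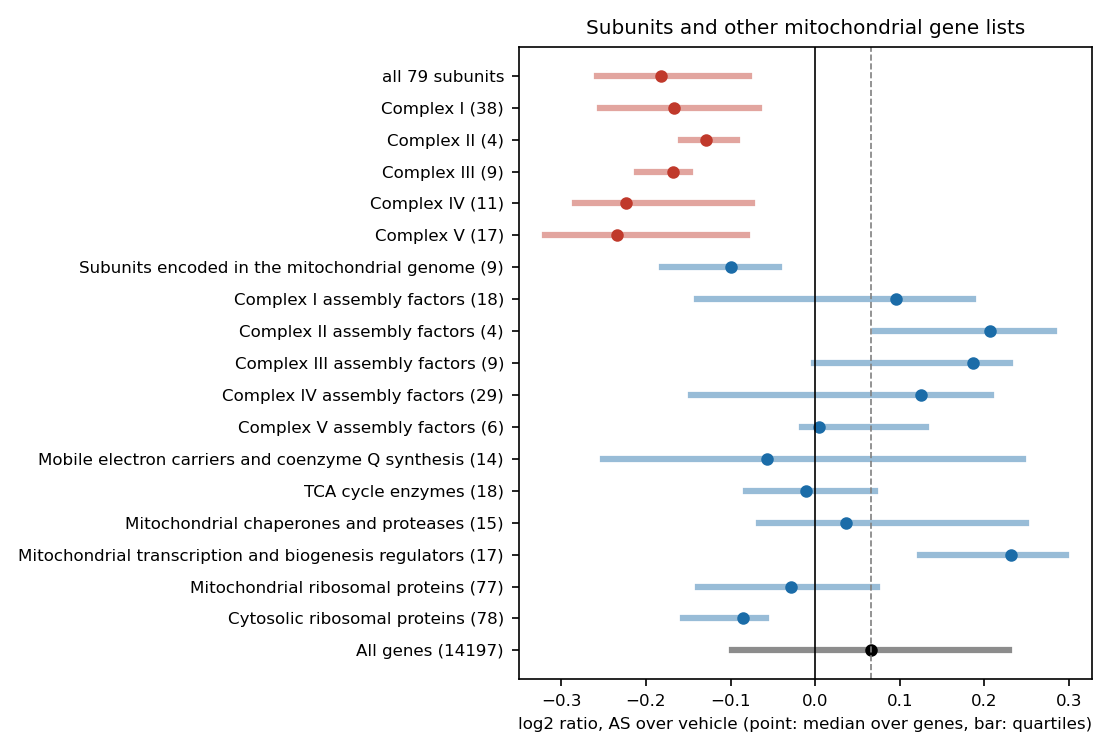
The x axis is the log2 ratio of RPKM, AS over vehicle, and each row is a list of genes with its number in brackets, where the point is the median over genes and the bar spans the quartiles. The subunits of the 5 complexes (red) have medians between -0.23 and -0.13, the other mitochondrial and ribosomal lists (blue) between -0.10 and 0.23, and all genes (black, dashed line) 0.07.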

How the data were processed

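RNA-seq of 4T1 cells gave 1 library with AS and 1 with the vehicle. The authors deposited 1 table with an RPKM value per gene and library, and the unit was found from the values. The submitters' processing notes name fastp 0.23.4, STAR 2.5.3a and featureCounts, and a human build, GRCh38, although the gene symbols are those of the mouse. The strand setting of the counting is not given in the sources used here, and exons of 24 of 77 subunits overlap a gene on the opposite strand. The authors' fold change, mean CPM, p-value and FDR columns were not used.

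Whole reads were recovered from the deposited RPKM, the exon length in GENCODE M21 (GRCm38) and the library size, within a tolerance of 0.01 reads, for 12877 of 14197 genes (90.7%). They served for intervals and for TMM scaling. The lengths matched this mouse annotation, so coordinates are given from it. Reads were not recovered for Atp5o and Ndufb4b. With 1 library per condition no p-value was computed. Ratios were log2((AS RPKM + 0.1)/(vehicle RPKM + 0.1)). Trends were removed as medians in 20 bins over 3 rounds. Pseudogenes were searched with blastn 2.17.0, and the rest was computed in Python 3.11.15 with numpy 2.4.6, pandas 2.3.3 and scipy 1.17.1. The scripts were tested on simulated data.

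The subunits and all gene lists were chosen with earlier results of these data known. Genes named in full were the 3 highest and 3 lowest ratios of each larger complex, all of complex II, isoform families, and up to 2 highest and 2 lowest of each other list. Other subunits are named for their role or level, after their values were seen, and Ndufab1, a shared subunit that the symbol rule does not match, had a log2 ratio of -0.17. The alternatives are those described with the limits. The values of 1 subunit are not reported here, although it is counted in the group summaries.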

Additional observations from a re-analysis of the deposited data

How the results depend on the processing

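Of 120 values recomputed under 10 alternatives, 98 stayed within the counting error or within 1.5 times the count, 22 moved and 0 changed sign. Part of this tally was fixed in advance and is no measure of robustness. Counts cannot change sign, and centring or TMM scaling cannot move a distance from the median of all genes. Leaving out subunits with a mean under 1 RPKM removed none, so its values repeat the main ones. Adding 0 or 1 RPKM, or keeping genes with a mean of at least 1 RPKM, moved none. Centring on the median of all genes, like TMM scaling, gave 33 subunits more than 1.2-fold lower (19 as reported) and 3 more than 1.5-fold lower (1 as reported), beside 15.2% and 2.84% of all genes (15.3% and 2.85% with TMM). Both shift every ratio by 0.07. Removing the trends with exon length, expression and GC content gave a distance of the subunit median from all genes of -0.14, with -0.13 for complex I, -0.12 for complex IV and -0.18 for complex V. It left 11 of 77 subunits more than 1.2-fold lower, 1 higher and 0 more than 1.5-fold lower, beside 9.32%, 19.1% and 1.6% of all genes. With the trend in coding length also removed, an alternative chosen after seeing the data, the distance was -0.12 for all subunits, -0.089 for complex I, -0.092 for complex II, -0.091 for complex IV, -0.12 for complex III and -0.13 for complex V. Then 8 of 75 subunits were more than 1.2-fold lower, 2 higher and 0 more than 1.5-fold lower, beside 8.22%, 18.1% and 1.15%. Keeping only members searched and found without a near-identical pseudogene was also chosen after seeing the data. Then 10 of 58 were more than 1.2-fold lower and 0 more than 1.5-fold lower, with fewer genes counted, beside 10.6% and 2.01% of all genes. The cause of the other changes was not tested.

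No paired analysis was possible because each condition has 1 library, and for the same reason no replicate was left out. Leaving out genes with Atp5 or Uqcr symbols that are not subunits gave no value, since none was matched. Leaving out Cox7a2l, Ndufb4c and Ndufb1, chosen after seeing the data, moved no value (18 more than 1.2-fold lower). No subunit had a mean under 1 RPKM. The spread between cultures is unknown, and most ratios are small enough that it decides how they can be read. Depth limits the low subunits most, with interval widths from 0.03 to 0.70 on the log2 scale.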
